A study of Mus musculus with 4 samples.

Results

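The genes described here are *Hif1a*, which encodes the oxygen-regulated subunit of hypoxia-inducible factor (HIF), and 9 genes known as HIF targets other than glycolytic enzymes, *Ndufa4l2*, *Pdk1*, *Bnip3*, *Egln1*, *Egln3*, *Vegfa*, *Ankrd37*, *Slc2a1* and *Kdm3a*. They are 10 of the 24062 genes counted by RNA-seq in E13.5 mouse retinas, and all 10 were among the 15762 genes with enough reads to be compared. Their values in mutant against wildtype retinas were known when they were chosen, so that comparison is given for them as a description, without a test. The retinas came from embryos of a mixed C57BL/6 129 strain, 2 libraries from wildtype and 2 from Nrf1-CKO embryos, in which both *Nrf1* alleles carry loxP sites (*Nrf1* f/f) and the *Six3-Cre* transgene deletes exon 4 in retinal progenitor cells, mainly of the central retina. Each library was made from total RNA of retinas pooled from several embryos, and whether wildtype embryos carried the floxed allele or the transgene is not given in the sources used here. The p-values printed for other genes set the difference between genotypes against the spread between these pooled libraries, not between embryos.

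HIF is a pair of proteins, an alpha subunit such as Hif1a and the partner Arnt, that binds DNA at a short core sequence and raises transcription of its targets. When oxygen is available, prolyl hydroxylases encoded by *Egln* genes modify the alpha subunit so that the Vhl complex marks it for degradation, which means that Hif1a is controlled largely as a protein and that its mRNA does not report its activity. Target genes shift cells from mitochondrial respiration to glucose use, direct the removal of mitochondria and call in blood vessels. Nrf1 is a transcription factor that activates nuclear genes for mitochondrial proteins and binds a palindromic GC-rich motif.

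The HIF core is written ACGTG or GCGTG, and the Nrf1 motif searched was GCGC, then A and any base (N), then GCGC. Each was looked for on both strands in the window from 250 bases before to 50 bases after each annotated transcription start, in RefSeq sequences of GRCm38.p6. A match is only a description of the letters and is not a binding site. Of the members, 9 had an entry and *Ndufa4l2* had none. The 250 bases before the start are shown for the 4 members that had an entry and differed at least 1.4-fold between genotypes, with the 3 of lower value first and *Egln3*, the member of higher value, last. They lie on GRCm38.p6 at chr2:71872974-71873223 (plus strand) for *Pdk1*, chr7:138909507-138909756 (minus strand) for *Bnip3*, chr8:45999851-46000100 (minus strand) for *Ankrd37* and chr12:54203875-54204124 (minus strand) for *Egln3*. Each is written 5′ to 3′ on the strand of the gene and ends at the base before the start. Capitals mark the HIF core and the Nrf1 motif. The core on the other strand reads CACGT or CACGC, and the last 2 bases shown for *Pdk1* begin a core that runs across the start.
Pdk1: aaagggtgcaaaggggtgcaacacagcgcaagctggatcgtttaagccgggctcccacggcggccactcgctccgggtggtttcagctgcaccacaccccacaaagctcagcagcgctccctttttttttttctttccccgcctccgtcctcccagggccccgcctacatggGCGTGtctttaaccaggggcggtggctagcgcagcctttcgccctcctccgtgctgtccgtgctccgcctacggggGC
Bnip3: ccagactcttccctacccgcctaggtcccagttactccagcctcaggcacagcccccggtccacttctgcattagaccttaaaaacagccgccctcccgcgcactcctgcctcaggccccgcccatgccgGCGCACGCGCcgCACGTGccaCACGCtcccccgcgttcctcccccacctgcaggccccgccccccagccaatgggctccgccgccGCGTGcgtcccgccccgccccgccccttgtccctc
Ankrd37: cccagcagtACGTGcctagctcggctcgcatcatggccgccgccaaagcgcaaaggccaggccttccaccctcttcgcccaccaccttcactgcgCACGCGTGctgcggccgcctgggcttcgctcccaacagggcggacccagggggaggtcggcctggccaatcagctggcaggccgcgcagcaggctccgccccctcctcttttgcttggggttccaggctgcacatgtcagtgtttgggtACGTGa
Egln3: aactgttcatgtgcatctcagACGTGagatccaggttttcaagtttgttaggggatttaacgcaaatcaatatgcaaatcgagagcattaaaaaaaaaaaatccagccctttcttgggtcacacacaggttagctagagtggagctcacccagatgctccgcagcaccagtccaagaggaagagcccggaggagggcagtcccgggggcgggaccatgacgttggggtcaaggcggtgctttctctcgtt

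A core of either form stood in the window of all 9 members with an entry, against 46.7% of the 27025 genes in the sequence table. Counted by form, ACGTG was in 7 of the 9 and in 21.8% of all genes, and GCGTG in 7 of the 9 and in 35.2% of all genes. Several members have more than 1 annotated start, and by window the core was in 9 of their 13 windows and in 43.8% of all 32851 windows. The members' windows were rich in G and C, with a median GC content of 65.3% against 52.7% over all windows. Over the 29326 windows within the members' range of GC content, from 40.3% to 86%, the share with a core was 47.3%. The median GC content of those windows was 54.3%, below that of the members, so the 2 sets were not matched in GC content. The Nrf1 motif was in the window of *Bnip3* and in those of no other member, against 5.19% of all genes. In *Bnip3* it covered positions -120 to -111, counted from -1 at the base before the start, and overlapped a GCGTG core of the opposite strand at -117 to -113. A palindromic core, ACGTG on both strands, followed at -108 to -103. In *Egln3*, the member of higher value in the mutant, the only core lay at -229 to -225. *Ankrd37* had cores along its window, at -241 to -237, at -155 to -151, at -152 to -148 and at -6 to -2.

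**Figure D1:**
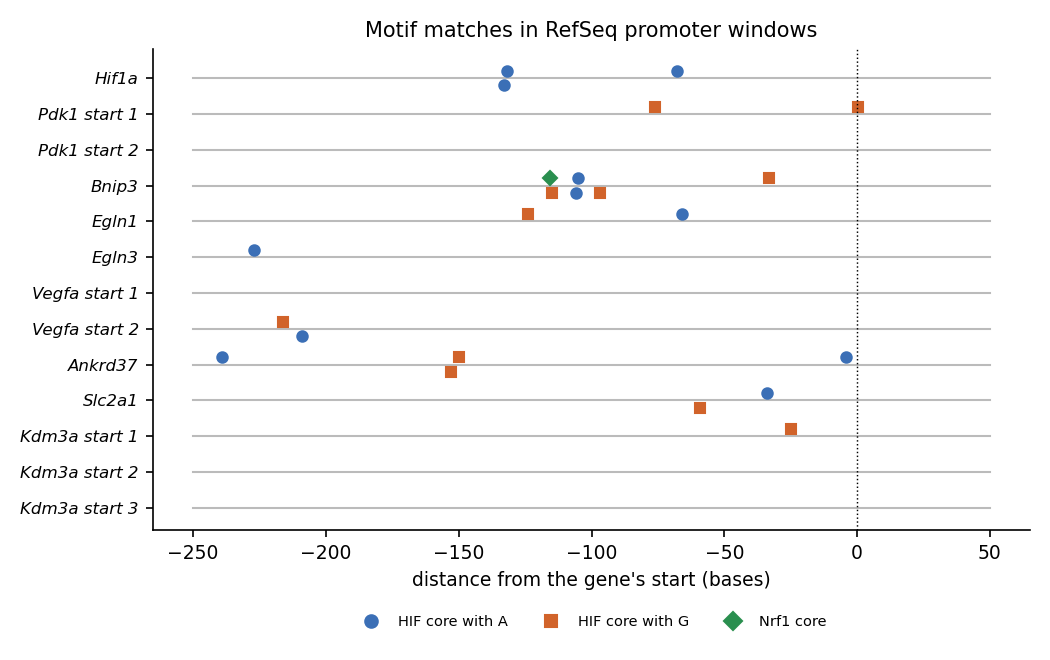
Position of each HIF core and Nrf1 motif in the promoter windows of the 9 members with a RefSeq entry, by distance in bases from the transcription start, with a line for each annotated start and matches on the strand of the gene above it and on the opposite strand below it. The Nrf1 motif appears only in *Bnip3*, where it lies from -120 to -111 among cores of both forms.

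Depth was similar, from 74577660 to 85933945 reads counted on genes, and replicates of a genotype differed beyond sampling noise (chi-square 45.8 per gene in wildtype and 56.8 in mutant pairs). The deleted gene, *Nrf1*, had 9052 and 7789 reads in wildtype libraries against 8594 and 8284 in mutant libraries, a log2 fold change of -0.03 (SE 0.07, adjusted p = 0.794 by edgeR's quasi-likelihood test with Benjamini-Hochberg adjustment). The count covers all exons and not exon 4 alone, so it did not check the labels. Genes are called lower or higher where this test gave an adjusted p of 0.2 or less and the fold was 1.4 or more, the thresholds of the study. In bulk RNA, fewer cells of a type and less RNA per cell cannot be told apart.

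Of the 10 members, *Ndufa4l2*, *Pdk1*, *Bnip3* and *Ankrd37* met these thresholds for lower expression in the mutant, *Egln3* met those for higher expression, and 5 met neither. Over all genes, 8.04% were called lower and 12.8% higher. In 8 members both mutant libraries lay below both wildtype libraries, as they did for 31.6% of all genes, in *Egln3* they lay above, as for 30.9%, and in *Vegfa* the genotypes overlapped. These counts come from the values by which the members were chosen and nothing is read from them. The median log2 fold change of the members was -0.32, and that of all genes tested was 0.00073. Added over the members, the level was 1626 and 1648 CPM in the wildtype and 1385 and 1395 CPM in the mutant libraries, where CPM is reads scaled to a common library size with edgeR's TMM factors, and *Slc2a1* and *Hif1a* made up most of it.

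**Figure D2:**
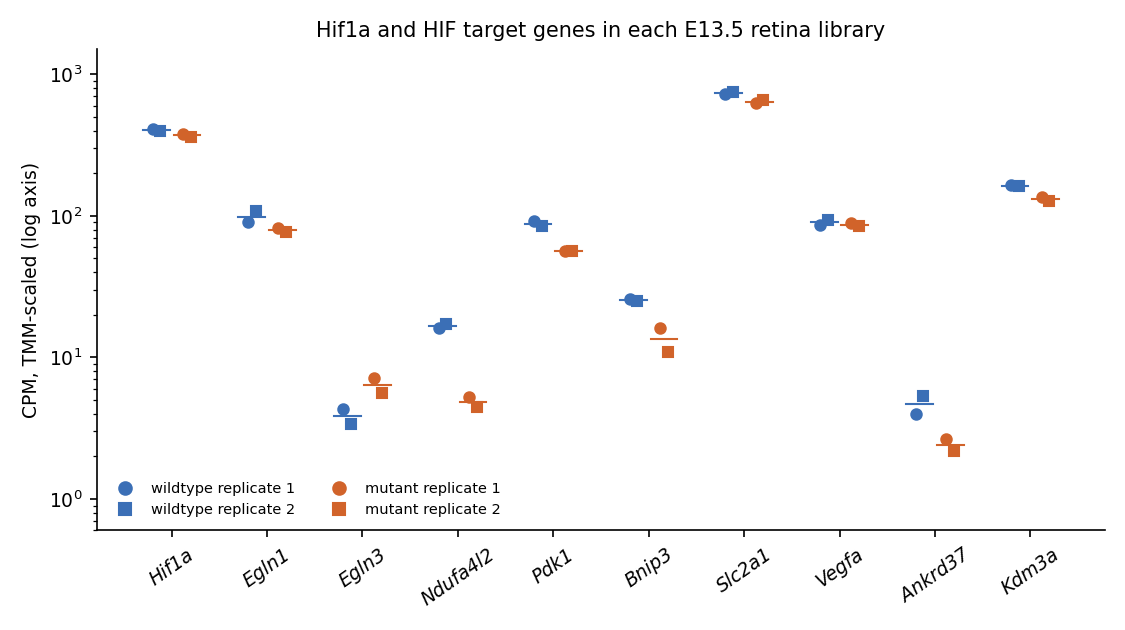
Level of each member in the 4 libraries, in CPM on a log axis, with a point for each library (wildtype blue, mutant orange) and a line at the mean of each genotype (n = 2). *Ndufa4l2* stands farthest apart, at 16.1 and 17.1 CPM in wildtype and 5.27 and 4.47 CPM in mutant libraries, *Egln3* is the only member with both mutant libraries above, and *Vegfa* is the only one whose libraries overlap.

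*Hif1a* (chr12:73901375-73947530 on GRCm38, plus strand) had 36145 and 29577 reads in wildtype libraries against 31441 and 29878 in mutant libraries. These were 413 and 399 CPM against 378 and 361 CPM, so both mutant libraries were slightly lower, at 91.1% ± 3.02 of the wildtype mean (SD, n = 2). The log2 fold change was -0.13 (SE 0.08). Genes for the other alpha subunits were much less expressed. *Epas1*, which encodes Hif2a and is known for its expression in endothelium, rose from 832 and 642 to 1810 and 1487 reads, a log2 fold change of 1.13 (SE 0.13, edgeR adjusted p = 5.43e-04). Per length of exon, in RPKM, *Hif1a* gave 95.4% and 95.3% of the sum of the 3 alpha subunit genes in wildtype libraries and 90.9% and 92.1% in mutant libraries, and *Epas1* gave 2.32% and 2.18% against 5.52% and 4.83%. *Hif1a* transcript therefore made up nearly the whole sum in each library. *Hif3a* had a log2 fold change of 0.39 (edgeR adjusted p = 0.0733), which is smaller than 1.4-fold, and without mutant replicate 2 it was called higher, at 0.53. The partner genes *Arnt* and *Arnt2* had log2 fold changes of 0.17 and -0.05 (edgeR adjusted p = 0.177 and 0.681).

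The oxygen-sensing prolyl hydroxylases, which lie upstream of HIF and are partly its targets, did not share a direction. *Egln1* (chr8:124908587-124949324, minus strand), which encodes the main hydroxylase of Hif1a, had 7864 and 7999 reads in wildtype libraries against 6813 and 6325 in mutant libraries. Both mutant libraries were lower, at 82.0 and 76.4 CPM against 89.8 and 108, but the distance between the closest libraries of the 2 genotypes was smaller than that between the wildtype libraries. Its log2 fold change was -0.32 (SE 0.10), and it lay between -0.44 without wildtype replicate 1 and -0.18 without wildtype replicate 2. *Egln3* (chr12:54178981-54203860, minus strand), whose product is the hydroxylase best known for its induction by hypoxia, had 380 and 250 reads in wildtype libraries against 599 and 461 in mutant libraries. It was the only member with higher values in both mutant libraries, at 7.21 and 5.57 CPM against 4.34 and 3.37, with a log2 fold change of 0.73 (SE 0.21). The few reads of *Egln3* left its level loosely set, and the change ranged from 0.53 without mutant replicate 1 to 0.93 without wildtype replicate 1. *Egln2*, the third hydroxylase gene, which is not known as a HIF1 target, had 106 ± 7.44 CPM in wildtype and 107 ± 3.99 CPM in mutant libraries (SD, n = 2), a log2 fold change of 0.01 (edgeR adjusted p = 0.955). By RPKM it held 57.5% and 56.0% of the *Egln* sum in wildtype and 59.2% and 62.6% in mutant libraries, whereas *Egln1* held 39.9% and 42.2% against 36.4% and 34.0%. *Egln3* stayed a minor part, at 2.60% and 1.78% against 4.32% and 3.35%.

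Genes of the oxygen-sensing machinery were taken as a list. Among 17 genes for alpha subunits other than *Hif1a*, their partners, *Egln2*, the Vhl ubiquitin ligase and regulators of HIF activity, 0 were called lower and 1, *Epas1*, was called higher by edgeR, against 8.04% and 12.8% of all genes, shares that leave these counts near the background, and DESeq2 gave the same counts. At an unadjusted p below 0.05, 2 were lower and 3 higher, and an edgeR adjusted p of 0.2 or less without regard to the fold held for 7, among them *Rbx1*, a ligase subunit, at a log2 fold change of -0.45 (adjusted p = 0.00306). The median over the 17 was 0.0088. *Vhl* had a log2 fold change of -0.01 (edgeR adjusted p = 0.956), and *Hif1an*, the asparagine hydroxylase that blocks HIF activity, one of 0.23 (edgeR adjusted p = 0.0826), which is smaller than 1.4-fold.

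The 3 members whose products act on mitochondria, *Ndufa4l2*, *Pdk1* and *Bnip3*, were all lower in both mutant libraries. *Ndufa4l2* (chr10:127514967-127517154, plus strand), a HIF1 target related to a subunit of cytochrome c oxidase and known to lower respiration, had 1412 and 1268 reads in wildtype libraries against 438 and 370 in mutant libraries. The gap between genotypes was many times the spread within either, and the mutant mean was 29.3% ± 3.41 of wildtype (SD, n = 2). Its log2 fold change of -1.77 (SE 0.14) was the lowest of the 10 and ranged from -1.89 to -1.66 over the fits without 1 library. *Ndufa4*, which encodes the constitutive relative, had a log2 fold change of -0.21 (SE 0.08, edgeR adjusted p = 0.0782), smaller than 1.4-fold. *Ndufa4l2* made up 13.0% and 13.9% of the RPKM of the pair in wildtype libraries and 5.56% and 4.50% in mutant libraries. *Cox4i2*, which encodes the hypoxia-induced form of a cytochrome c oxidase subunit, fell beside it, with a log2 fold change of -1.69 (SE 0.12, edgeR adjusted p = 9.88e-05). Both are also known as pericyte transcripts. Of 7 tested pericyte markers, which do not include them, 6 were called higher. The summed level of the pericyte markers was 186 to 195 CPM in wildtype and 317 to 319 CPM in mutant libraries. *Notch3* alone made up most of each sum, at 141 and 155 CPM in wildtype and 237 and 228 CPM in mutant libraries. *Higd1b*, a defining pericyte marker, was at 0 reads in every library.

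*Pdk1* (chr2:71873224-71903858, plus strand) encodes a kinase that keeps pyruvate from the tricarboxylic acid cycle by inhibiting pyruvate dehydrogenase. It had 8001 and 6258 reads in wildtype libraries against 4708 and 4691 in mutant libraries. The mutant libraries nearly coincided, at 56.7 CPM each, below 91.4 and 84.4 CPM in wildtype, a log2 fold change of -0.63 (SE 0.08). *Pdk2*, a kinase gene of the same family, rose from 22.7 ± 1.20 to 32.4 ± 0.162 CPM (SD, n = 2), a log2 fold change of 0.51 (SE 0.09, edgeR adjusted p = 0.00458), and was smaller than 1.4-fold without wildtype replicate 1, at 0.46. *Pdk3* had 0.06. *Pdk4* was called higher on 3 and 12 reads against 28 and 47, a log2 fold change of 2.22 (SE 0.85, edgeR adjusted p = 0.0951), and the call was lost without wildtype replicate 1 (1.48) and without mutant replicate 2 (1.79). In RPKM, *Pdk1* gave 33.2% and 31.7% of the family's sum in wildtype and 21.7% and 20.5% in mutant libraries, and *Pdk2* gave 19.5% and 21.8% against 30.5% and 28.6%. The order of the pair within the family was thus reversed between genotypes in every library, while *Pdk3* was the most abundant throughout.

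*Bnip3* (chr7:138890836-138909519, minus strand) encodes a mitochondrial outer membrane protein that directs mitochondria to autophagy. It had 2248 and 1857 reads in wildtype libraries against 1338 and 911 in mutant libraries. The wildtype libraries were close together, at 25.7 and 25.0 CPM, whereas the mutant libraries were 16.1 and 11.0 CPM, so its mean of 53.5% ± 14.2 of wildtype had the widest spread among the members with lower values. The log2 fold change was -0.90 (SE 0.17) and moved from -0.66 without mutant replicate 2 to -1.20 without mutant replicate 1. An annotated antisense gene covers 22.3% of its exon bases, and strand use in the counting is not given in the sources used here, so reads of either could be mixed. *Bnip3l*, whose product has the same role and is a further HIF target, had a log2 fold change of -0.32 (SE 0.11, edgeR adjusted p = 0.0690), smaller than 1.4-fold.

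*Slc2a1* (chr4:119108711-119137983, plus strand), which encodes the glucose transporter Glut1, was the most abundant member, with 63934 and 55734 reads in wildtype libraries against 51735 and 54329 in mutant libraries. Both mutant libraries were lower, at 623 and 657 CPM against 730 and 751, or 86.4% ± 3.24 of wildtype (SD, n = 2). The log2 fold change was -0.21 (SE 0.08), smaller in size than that of *Pdk1*. *Slc2a1* made up 97.8% and 98.1% of the RPKM of *Slc2a1*, *Slc2a3* and *Slc2a4* in wildtype and 97.3% and 97.1% in mutant libraries. *Slc2a3*, which encodes the neuronal glucose transporter, had a log2 fold change of 0.39 (edgeR adjusted p = 0.0431), under 1.4-fold, and was called higher without mutant replicate 1, at 0.49.

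*Vegfa* (chr17:46016993-46032369, minus strand), which encodes the growth factor that draws blood vessels into the retina, had 7561 and 6925 reads in wildtype libraries against 7366 and 6958 in mutant libraries. Its libraries interleaved, at 86.3 and 93.4 CPM in wildtype and 88.7 and 84.1 CPM in mutants. The log2 fold change of -0.06 (SE 0.08) was the smallest of the 10 in size and turned to 0.0042 without wildtype replicate 2. Of the related ligand genes, *Vegfb* and *Pgf* had 0.03 and -0.01, and *Vegfc*, known for lymphatic growth, rose by a log2 fold change of 0.62 (SE 0.18, edgeR adjusted p = 0.0371). The 5 receptor genes were all called at these thresholds, in different directions. *Kdr* and *Nrp1*, the main receptor and a coreceptor of Vegfa, fell with log2 fold changes of -0.55 and -0.65 (edgeR adjusted p = 0.00125 and 8.39e-04). *Flt1*, *Flt4* and *Nrp2* rose with 1.06, 1.31 and 1.12 (edgeR adjusted p = 4.61e-04, 3.64e-04 and 3.16e-04). *Kdr* is also expressed by retinal progenitors. Of 9 endothelial markers, *Kdr* among them, 1 was called lower and 7 higher, with a summed level of 277 to 280 CPM in wildtype and 298 to 306 CPM in mutant libraries. *Kdr* made up most of the wildtype sum, and the other 8 markers summed to 77.8 and 69.4 CPM in wildtype and 162 and 160 CPM in mutant libraries. The part of vessels in these values was not tested.

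*Kdm3a* (chr6:71588972-71632990, minus strand), which encodes a histone H3 lysine 9 demethylase that needs oxygen, had 14523 and 11978 reads in wildtype libraries against 11200 and 10481 in mutant libraries. Both mutant libraries were lower, at 135 and 127 CPM against 166 and 161, a log2 fold change of -0.32 (SE 0.08) that is smaller than 1.4-fold. Its relatives *Kdm3b* and *Jmjd1c* had 0.04 and 0.10 (edgeR adjusted p = 0.791 and 0.430). The share of *Kdm3a* in the RPKM of the 3 genes was 46.5% and 47.4% in wildtype and 40.0% and 40.9% in mutant libraries. *Ankrd37* (chr8:45996902-46005707, minus strand), which encodes an ankyrin repeat protein and is known mainly as a hypoxia marker, had 351 and 394 reads in wildtype libraries against 220 and 182 in mutant libraries. Both mutant libraries were lower, at 2.65 and 2.20 CPM against 4.01 and 5.31, with a log2 fold change of -0.94 (SE 0.24), the widest standard error of the 10. *Lrp2bp*, on the opposite strand, overlaps 22.7% of the exon bases of *Ankrd37*, and reads of either gene could be mixed there.

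**Figure D3:**
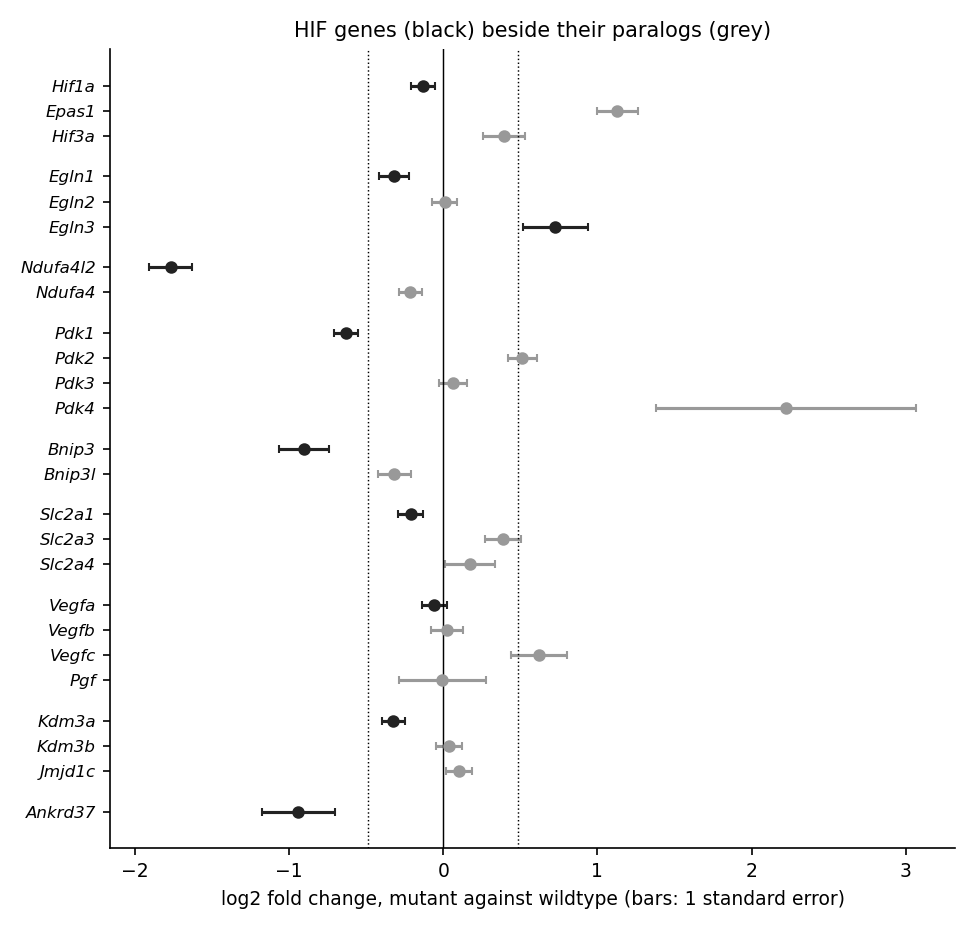
Log2 fold change of mutant against wildtype retinas for each member and its relatives, grouped by family, with bars of 1 standard error (n = 2 libraries per genotype) and dotted lines at 1.4-fold. Of the 15 relatives, 4 were called higher by edgeR, *Epas1*, *Pdk2*, *Pdk4* and *Vegfc*, while *Ndufa4l2* at -1.77 and *Egln3* at 0.73 mark the ends among the members.

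Ranked by RPKM, which corrects for length, the members spanned a wide range in wildtype retinas. *Slc2a1* led with 211, followed by *Hif1a* with 68.8, *Egln1* with 27.5, *Vegfa* with 21.0, *Kdm3a* with 19.9, *Ndufa4l2* with 15.2, *Pdk1* with 11.3, *Bnip3* with 11.2, *Ankrd37* with 3.03 and *Egln3* with 1.45. The libraries of *Vegfa* and *Kdm3a* overlapped, as did those of *Pdk1* and *Bnip3*, so these neighbours could not be ordered. In mutant retinas *Ndufa4l2*, at 4.45 RPKM, came after *Pdk1* at 7.29 and *Bnip3* at 5.99, and *Egln3* at 2.40 came before *Ankrd37* at 1.57. By their means, the 5 most abundant members stood in the same order in both genotypes.

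Targets outside the 10 members went both ways. Of 42 further non-glycolytic targets, 6 were called lower, 10 higher and 26 neither by edgeR, with a median log2 fold change of -0.07, against 8.04% and 12.8% of all genes. The lower ones were *Cox4i2*, *Ndrg1* (-1.36, SE 0.12, adjusted p = 1.68e-04), *Slc16a3* (-1.11, SE 0.08, adjusted p = 9.88e-05), *Vldlr*, *Hilpda* and *Narf*. *Slc16a3* encodes the exporter that carries lactate out of glycolytic cells, *Vldlr* a lipoprotein receptor and *Hilpda* a lipid droplet protein, and *Narf* was smaller than 1.4-fold without mutant replicate 2, at -0.40. Among those that rose were *Bhlhe41* (1.43, SE 0.15, adjusted p = 2.98e-04 by edgeR), *Edn1*, *Bhlhe40*, *Hmox1* and *Lox*. *Bhlhe40* and *Bhlhe41* encode repressors of transcription, *Hmox1* a heme-degrading enzyme and *Lox* a collagen cross-linking enzyme, and several of these are known from vessels, macrophages or connective tissue. *Edn1* had 185 and 53 reads in wildtype libraries, and without wildtype replicate 2 it was not called (0.64, edgeR adjusted p = 0.238). Of 16 glycolytic targets, 5 were called lower, 1 higher and 10 neither by edgeR, with a median of -0.38. At an unadjusted edgeR p below 0.05, 12 of the 16 were lower and 1 higher. An edgeR adjusted p of 0.2 or less without regard to the fold held for 13. The 4 glycolytic targets with near-identical copies were *Gapdh*, *Eno1*, *Pgk1* and *Pgam1*. They had only 2.92 to 21.1 CPM in wildtype libraries, in counts that leave out alignments that were not unique. Without these genes 4 of 12 were called lower and 1 higher, with a median of -0.40.

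**Figure D4:**
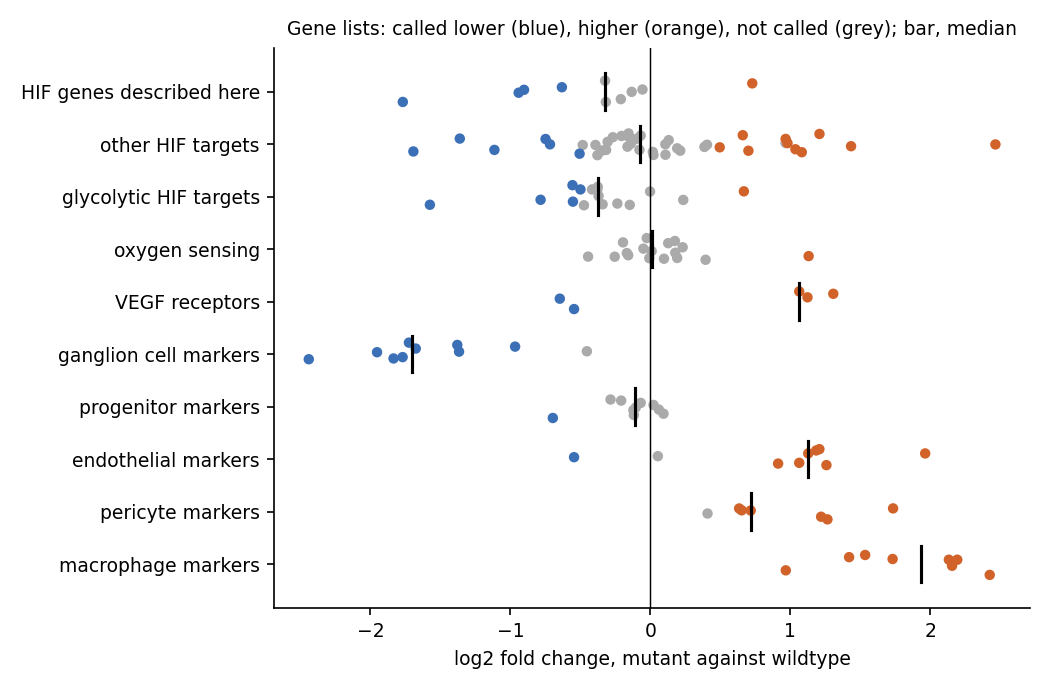
Log2 fold change of mutant against wildtype retinas for every tested gene of the members, of other HIF targets, oxygen-sensing genes and Vegf receptors, and of 5 lists of cell type markers, with a point for each gene coloured by its call and a bar at each median. The median lies at -0.32 for the members, -0.38 for glycolytic targets and -0.07 for other HIF targets.

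Many lists of cell type markers differed between the genotypes, and their part in the members' values was not tested. Of 10 ganglion cell markers, 9 were called lower by edgeR, and their summed level was 1705 to 1940 CPM in wildtype and 516 to 676 CPM in mutant libraries. Of 10 progenitor markers, 1 was called lower, with sums of 4109 to 4362 CPM against 3572 to 3729 CPM. That gene was *Fgf15*, and without it the sums overlapped, at 2998 and 3200 CPM in wildtype and 2864 and 3035 CPM in mutant libraries. Of 6 photoreceptor precursor markers 2 were called lower. Markers of lens, macrophages, periocular mesenchyme, pigment epithelium and erythroid cells had higher sums in mutant libraries. All 8 lens markers were called higher, from a summed 115 to 308 CPM in wildtype to 2647 to 6359 CPM in mutant libraries, as were all 8 macrophage markers, from 67.3 to 72.8 CPM to 221 to 264 CPM. Of 8 periocular mesenchyme markers 6 were called higher, with sums of 173 to 238 CPM against 329 to 383 CPM. Pigment epithelium markers were higher for 4 of 5 tested and erythroid markers for 3 of 6, with sums of 144 to 205 and 570 to 671 CPM in wildtype against 374 to 395 and 738 to 741 CPM in mutant libraries. *Rpe65*, a pigment epithelium marker with too few reads to be tested, had 0 to 4 reads. *Pmel*, of the same list, had a mean of 119 CPM in wildtype and 268 CPM in mutant libraries. *Hba-a1* was listed at 0 reads, which cannot be read as absence, since it has a near-identical copy and alignments that were not unique were left out, and the globin gene *Hbb-y* had 473 to 614 CPM.

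The direction of each member was the same in every setting apart from *Vegfa*. With DESeq2, other scalings, other filters, the replicate number as a block, or with any 1 library left out, *Ndufa4l2* lay between -1.89 and -1.66 and *Pdk1* between -0.69 and -0.57 on the log2 scale. On the authors' deposited log2 values the differences were -1.11 for *Ndufa4l2*, -0.69 for *Bnip3*, -0.57 for *Pdk1*, -0.41 for *Ankrd37* and 0.38 for *Egln3*, and the latter 2 lay under 0.485, the log2 of 1.4. How these values were normalized is not stated. Members with few reads differed less on it than in the counts, whereas *Slc2a1*, the most abundant, had -0.21 on both, so these differences may not be fold changes.

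**Figure D5:**
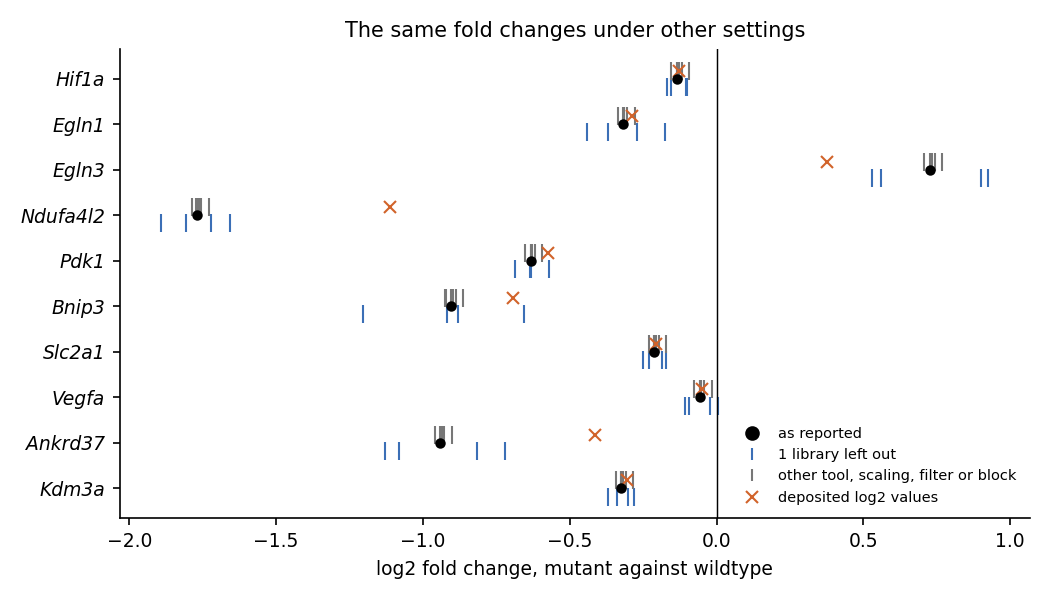
Log2 fold change of each member in each setting, with the deposited normalized values and the fits without 1 library marked apart. *Vegfa* is the only member with points on both sides of 0, and the deposited values bring *Ndufa4l2* from -1.77 to -1.11.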

How the data were processed

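The RNA-seq libraries were 2 wildtype and 2 Nrf1-CKO pools of E13.5 retinas, grouped by their labels. The authors used TopHat for alignment to mm10 and HTSeq for counting, and deposited raw whole-number counts per gene. The authors also deposited normalized values on a log2 scale, and how these were made is not given in the sources used here, nor are the annotation release and the strand setting of the counting. The summary rows of HTSeq held 74.0% to 75.0% of all entries, mostly alignments that were not unique, and stayed out of library sizes and tests. No column of values was left unused (0), and 2 gene symbols had been turned into dates. The study's Cuffdiff step needs aligned reads and was not repeated.

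Counts were filtered with filterByExpr at a minimum count of 10, scaled with TMM factors and compared in edgeR 4.0.16 (R 4.3.3) by its quasi-likelihood test, with Benjamini-Hochberg adjustment over 15762 genes. A call required an adjusted p of 0.2 or less and a fold of 1.4 or more. The biological coefficient of variation was 12%, and depth, from 74577660 to 85933945 reads, limited mainly *Egln3* and *Ankrd37*. Alternatives were DESeq2 1.42.0, library size and upper-quartile scaling, no filter and a mean of at least 1 CPM, a replicate block, edgeR's glmTreat, each library left out, and limma 3.58.1 on the deposited log2 values. The scripts were tested on simulated data. Coordinates and exon lengths for RPKM came from GENCODE on GRCm38, and promoters from RefSeq on GRCm38.p6.

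The members and gene lists were chosen with earlier results of these data known. The genes named were all members and their relatives, called genes of the other lists (at most 6 in each direction, by size of change), 6 fixed oxygen-sensing genes, and the 5 other genes of at least 5 CPM whose profile lay nearest the members' median. *Rbx1*, *Higd1b*, *Notch3*, *Rpe65*, *Pmel*, *Hba-a1*, *Hbb-y*, *Gapdh*, *Eno1* and *Pgam1* were named after their values were seen. So were the sums of endothelial markers without *Kdr* and of progenitor markers without *Fgf15*. The same holds for the glycolytic list without 4 genes and the counts of the Vegf receptors under each setting. One gene of the lists is not reported by name.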

Additional observations from a re-analysis of the deposited data

How the results depend on the processing

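The members were chosen from these values, so how many pass the thresholds in each setting is given as a description and is no sign of stability. The count of 4 lower and 1 higher became 3 lower and 0 higher on the deposited log2 values, and 0 were higher with glmTreat, which tests the fold against 1.4. Over all genes, the 1268 lower and 2024 higher calls became 723 and 945 on the deposited values and 743 and 1188 with glmTreat, and ranged from 1071 to 1402 and from 1703 to 1856 when each library was left out. Other HIF targets called higher came to 6 in both of those settings, glycolytic targets called lower to 3 and 2 and higher to 0 and 0, and relatives called higher to 1 and 1. With glmTreat, Vegf receptors called lower went from 2 to 1. With each library left out, other HIF targets ranged from 5 to 7 lower and 8 to 10 higher, glycolytic targets from 4 to 5 lower, relatives from 2 (without wildtype replicate 1) to 5 higher, and oxygen-sensing genes from 1 to 2 higher, *Hif3a* joining *Epas1* without mutant replicate 2. Samples with the same replicate number did not deviate together (r = -0.0070 across genes), and the labels do not say whether the numbers pair samples. With a replicate block 1256 genes were lower and 1970 higher, and the members' counts were as before. Among other named genes, 27 values of 12 genes lost a call and 6 values of 5 genes gained one. Scaling moved the median of all genes by at most 0.04. With 2 libraries per genotype the standard errors are themselves loosely set, most of all for *Egln3* and *Ankrd37*, which had the fewest reads of the members.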

Other observations

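The median profile of the members, centred on the mean log2 CPM of each gene, stood at 0.14 and 0.20 for wildtype replicates 1 and 2 and at -0.13 and -0.21 for mutant replicates 1 and 2. Among other genes with a mean of at least 5 CPM, 263 lay within a Euclidean distance of 0.1 of it over the 4 libraries. The 5 nearest were *Gm20300* (0.0151), *Copg1* (0.0160), *4931428F04Rik* (0.0216), *Akirin2* (0.0243) and *Dclk2* (0.0268). With 4 libraries such a profile is mostly the difference between genotypes, and many genes share it.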
